A study of Mus musculus with 47 samples.

Results

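Ly6d and 8 genes that are classical markers of the basal and luminal layers of epithelia were followed through 10 mouse RNA-seq libraries: 9 genes of the 23416 listed once in every count table. They were chosen by measured values as well as by name, because Ly6d had no reads in KO-F1 spermatozoa and many in KO-F2 spermatozoa. The contrast between these groups is therefore given as a description without a test, and the same holds for Ly6d in every comparison of spermatozoa. The remaining members were named for their tissue role. Krt5, Krt14, Krt15 and Trp63 stand for the basal layer (4 genes), and Krt7, Krt8, Krt18 and Krt19 for the luminal layer (4 genes).

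The libraries came from males labelled 8 to 12 weeks old, with 2 biological replicates per group. Ctrl-F1 and KO-F1 males were obtained by ICSI, the injection of a testicular sperm into an oocyte, and their fathers were wild-type and Scml2-KO males, respectively. F1 males of both groups are themselves wild-type for the X-linked Scml2, and their strain label is BDF2. KO-F2 males, labelled BDF3, were sired by KO-F1 males in natural matings with C57BL/6 females. There was no Ctrl-F2 group, so KO-F2 was compared with Ctrl-F1 across a generation, a strain label and the route of conception, which cannot be told apart. Liver RNA was selected for mRNA. For spermatozoa, cDNA was amplified from motile cells recovered by swim-up from the cauda epididymis. Sperm genes were present as labelled: 12 of 12 genes of spermatids and spermatozoa were above the limit of 3 counts in every sperm library. Their summed level was between 43153 and 149150 CPM, which are counts relative to the total of a library. This check covers no other cells. Genes of principal cells of the epididymis summed to between 1772 and 21139 CPM in the same libraries. The paper, in contrast, reported no expression of epididymal somatic markers in its sperm RNA-seq. In liver the hepatocyte list summed to between 115023 and 129047 CPM. Liver libraries totalled between 11339729 and 14278900 counts and sperm libraries between 1503733 and 11462105, where the KO-F2 libraries were the deepest, and 3 counts corresponded to at most 2.00 CPM. The labels name 1 sequencing run shared by both KO-F2 libraries and none for F1 spermatozoa. The X-linked Scml2 had between 0 and 18 counts in sperm libraries, too few to check the groups.

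Keratins are the intermediate filaments of epithelial cells, and each filament needs a type I partner (here Krt14, Krt15, Krt18 and Krt19) and a type II partner (Krt5, Krt7 and Krt8). Basal cells carry Krt5 with Krt14 and depend on the transcription factor encoded by Trp63, whereas luminal and other simple epithelial cells carry Krt8 with Krt18, often with Krt7 and Krt19. Hepatocytes are known for keeping only Krt8 and Krt18, while the bile duct adds Krt7 and Krt19. Ly6d encodes a small GPI-anchored surface protein of the Ly6/uPAR family. It is known as a marker of stratified epithelium and also of early and mature cells of the B lineage.

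Among the sperm groups, Ly6d was detected in KO-F2 only. It had 777 counts (67.8 CPM) in KO-F2 replicate 1 and 610 counts (72.8 CPM) in replicate 2, and 0 counts in each of the 4 F1 sperm libraries. A count of 0 in those libraries allows between 1.08 and 2.00 CPM at their depth. The groups were far apart: the KO-F2 mean of 70.3 ± 3.5 CPM (SD, n = 2) was at least 43.5-fold higher than in Ctrl-F1 and at least 55.8-fold higher than in KO-F1, with 3 counts per library as the floor. In liver, Ly6d had 1 and 5 counts in the Ctrl-F1 libraries, against 6 and 9 in KO-F1, at most 0.794 CPM, and did not pass the filter on low counts. Per kilobase of exon, Ly6d had the highest mean level of the 9 genes in KO-F2 spermatozoa (101.7 ± 5.08 CPM per kb, SD, n = 2). The next was Krt19 (60.6 ± 23.2 CPM per kb), whose libraries lay below those of Ly6d.

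**Figure D1:**
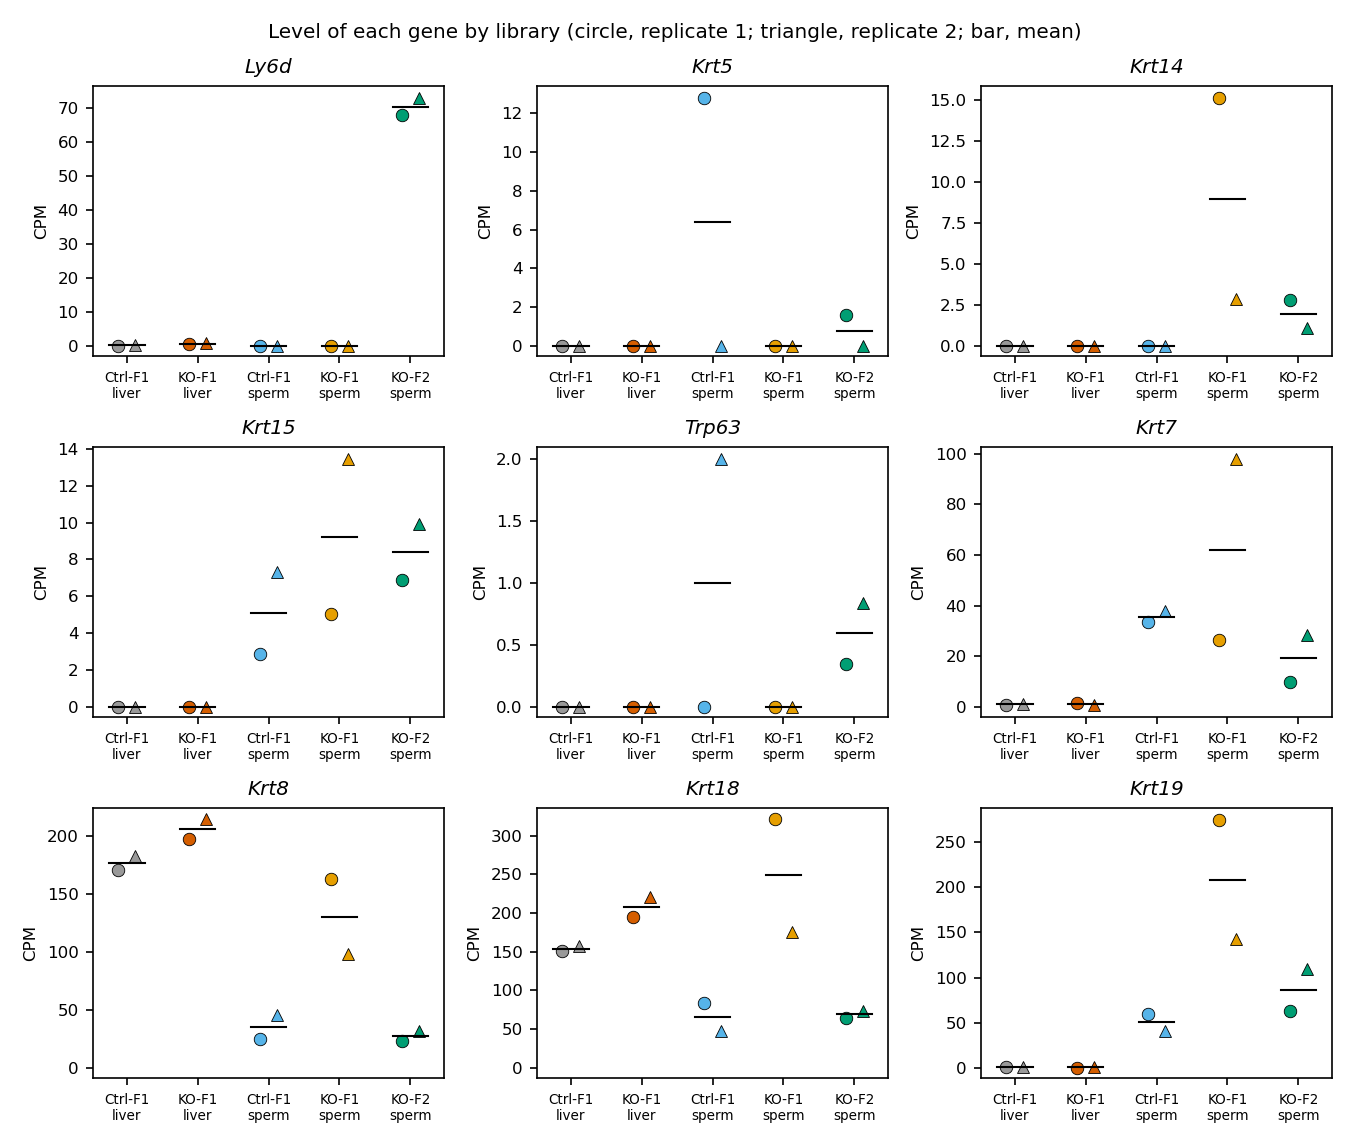
Level of each of the 9 genes (y axis, CPM of the library total, a separate linear scale per gene) in the 10 libraries by group (x axis); circles and triangles are replicates 1 and 2 and bars are means of 2. Ly6d stood at 67.8 and 72.8 CPM in KO-F2 spermatozoa against 0 in F1 spermatozoa, and Krt8, Krt18 and Krt19 were higher in both KO-F1 than in both Ctrl-F1 sperm libraries.

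None of the basal genes had the pattern of Ly6d, although they were detected at low levels. Krt5, the type II keratin of basal cells, had 31 and 0 counts in Ctrl-F1 spermatozoa, 0 and 0 in KO-F1 and 18 and 0 in KO-F2. Each group with reads thus had them in a single replicate, and the highest level, 12.8 CPM, belonged to Ctrl-F1 replicate 1. Krt14, its type I partner, had 0 and 0 counts in the Ctrl-F1 libraries, 42 and 6 in KO-F1 and 32 and 9 in KO-F2. In CPM the KO-F1 values were 15.1 and 2.88 and the KO-F2 values 2.79 and 1.07, so the libraries with Ly6d did not have the higher Krt14. Trp63, the master regulator of the basal layer, had 0 and 3 counts in Ctrl-F1 libraries, none in KO-F1 and 4 and 7 in KO-F2, which is below 1 CPM in each KO-F2 library. Krt14 reads can also fit its close relatives Krt16 and Krt17, so a low count of this gene is uncertain.

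Krt15, a keratin of basal and progenitor cells, was the best covered gene of the basal set. Ctrl-F1 spermatozoa had 7 and 11 counts, those of KO-F1 14 and 28 and those of KO-F2 79 and 83, or 2.88 and 7.32, 5.04 and 13.4, and 6.89 and 9.90 CPM. The 3 groups overlapped. Its log2 fold change was 0.42 (SE 1.21) in KO-F1 and 0.55 (SE 0.84) in KO-F2 against Ctrl-F1 (edgeR's quasi-likelihood test, Benjamini-Hochberg adjusted p = 0.900 and 0.835). All 4 basal genes had 0 counts in every liver library, which allows up to 0.265 CPM.

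Summed over Krt5, Krt14, Krt15 and Trp63, the basal set reached 11.6 and 11.8 CPM in KO-F2 spermatozoa, with 15.7 and 9.31 CPM in Ctrl-F1 and 20.2 and 16.3 CPM in KO-F1. The luminal set summed to between 160.2 and 784.3 CPM in the same 6 libraries. As a share of the reads of both sets, basal reads were 6.75% (95% Wilson interval 5.73% to 7.95%) and 4.64% (3.83% to 5.62%) in KO-F2, 7.24% (5.32% to 9.78%) and 5.13% (3.08% to 8.42%) in Ctrl-F1, and 2.51% (1.93% to 3.24%) and 3.08% (2.21% to 4.27%) in KO-F1. Above the limit of 3 counts were 4 and 3 of the 4 basal genes in the deeper KO-F2 libraries, 2 and 1 in Ctrl-F1, and 2 in each KO-F1 library. Reads of the basal set were thus present with Ly6d in KO-F2, at a share of the reads of both sets that overlapped the share in Ctrl-F1. Krt5 had 0 counts in KO-F2 replicate 2. The part of depth in the number of basal genes above the limit was not tested. A wider list of 24 other genes of the basal layer summed to 103.5 and 130.2 CPM in KO-F2, lower than in any F1 sperm library (301.2 to 621.4 CPM). Perp, a desmosomal protein of this list, had 223 and 138 counts in the Ctrl-F1 libraries, 302 and 294 in KO-F1 and 225 and 225 in the deeper KO-F2 libraries.

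Genes of B cells were high in the libraries that held Ly6d. Cd79a, which encodes a signalling chain of the B cell receptor, was at 156.9 and 100.9 CPM in KO-F2 spermatozoa, at 1.65 and 0 in Ctrl-F1 and at 0 and 0 in KO-F1. Cd79b, the other chain, was at 167.0 and 129.8 CPM in KO-F2 and at most at 3.36 CPM in an F1 sperm library. Ms4a1, the CD20 antigen, had 1018 and 477 counts in KO-F2 and 0 counts in all 4 F1 sperm libraries. Like Ly6d, these genes were higher in both KO-F2 than in both Ctrl-F1 libraries, a position held by 28.9% of all genes tested between these groups.

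The whole list of 22 B cell genes summed to 1055 and 950.7 CPM in KO-F2, 460.3 and 511.4 CPM in Ctrl-F1 and 260.2 and 234.5 CPM in KO-F1. Cd72, a B cell surface protein, made up most of the F1 sums (1004 and 750 counts in the Ctrl-F1 libraries, 680 and 412 in KO-F1), and it was lower in both KO-F2 than in both Ctrl-F1 libraries, short of a call (log2 fold change -0.47, SE 0.32, adjusted p = 0.564). Above the limit of 3 counts were 19 and 17 of the 22 genes in KO-F2, with 10 and 2 genes in the shallower Ctrl-F1 libraries and 3 and 7 genes in those of KO-F1. Genes that act early in the lineage were mixed in KO-F2. Ebf1 and Pax5, transcription factors of early and later B cells, had 74 and 76 and 17 and 27 counts, and at most 3 in an F1 sperm library. Vpreb3 had 14 and 9 counts, Rag1 4 and 1, Vpreb1 0 and 3, Igll1 0 and 2 and Rag2 none. Against Ctrl-F1 15 of the 22 genes passed the filter on low counts, of which 3 passed between the F1 groups, so that most entered through their KO-F2 reads and their calls are given as a description. EdgeR called 0 of them at the thresholds used throughout (a change of 2-fold or more with adjusted p below 0.01), as it called 0 of 13149 genes over the whole table. An unadjusted p under 0.05 was found for 11, beside 1960 over the whole table, and DESeq2 called 7, beside 277 of 12963 genes (2.14%).

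The summed level of macrophage and dendritic cell genes was also higher in KO-F2. The 12 genes measured summed to 4189 and 5483 CPM, with 459.4 and 1071 CPM in Ctrl-F1 and 569.8 and 762.5 CPM in KO-F1. Of the 11 that passed the filter against Ctrl-F1, 5 were higher in both KO-F2 libraries and 0 lower. Over all genes tested these shares were 28.9% and 19.2%. The median log2 fold change of the list was 0.95 beside 0.07 over all genes tested. EdgeR called 0 of the list and DESeq2 3, beside 2.14% over the whole table by DESeq2. The sum was led by Lyz2, a lysozyme of macrophages and neutrophils (21877 and 26974 counts in KO-F2). Next was Cd74, the invariant chain of MHC class II, which B cells express as well (14683 and 9057 counts). Cd74 had 337 and 368 counts in the Ctrl-F1 libraries, against 322 and 428 in KO-F1. The list of 12 T and NK cell genes summed to 73.8 and 69.2 CPM in KO-F2 and to at most 25.1 CPM in F1. In libraries of a whole cell preparation, more cells of a type and more RNA per cell cannot be told apart, and the part of leukocyte RNA in the Ly6d reads was not tested. Ly6d, the B cell genes, the strain label and the generation all differed together between F1 and KO-F2 and cannot be told apart, and whether the sequencing run differed as well is not in the labels.

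**Figure D2:**
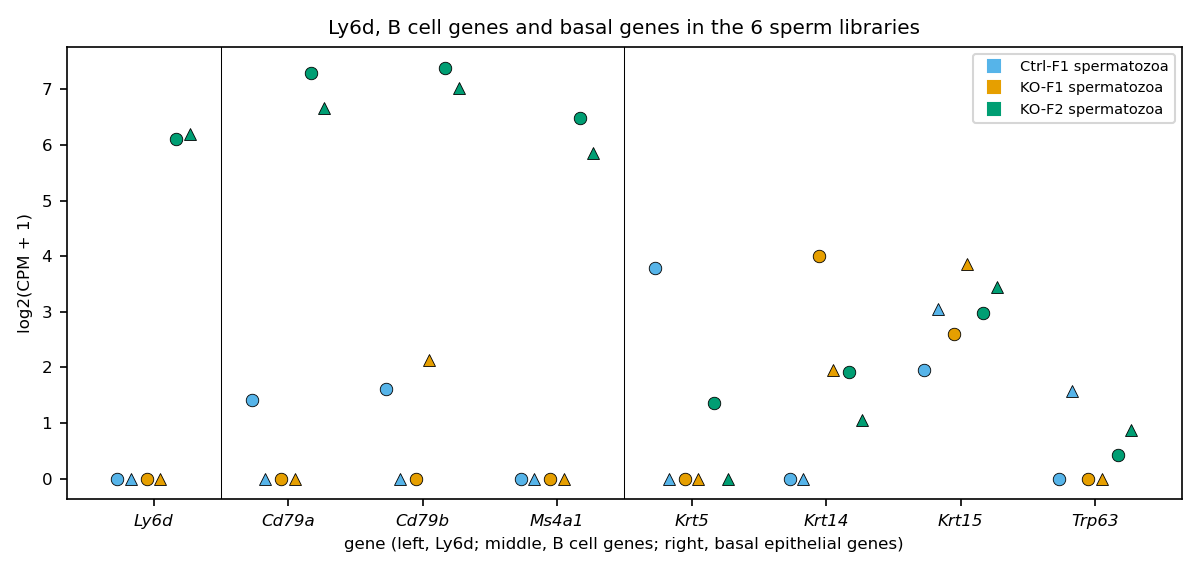
Ly6d, 3 B cell genes and 4 basal epithelial genes (x axis) in the 6 sperm libraries, as log2(CPM + 1) (y axis); colours are groups, and circles and triangles are replicates 1 and 2. Both KO-F2 libraries lie above all F1 libraries for Ly6d and each B cell gene, and for none of the basal genes.

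By Pearson correlation of log2(CPM + 1) over the 6 sperm libraries, the 5 genes most like Ly6d among 13029 were Rgs14, Mst1r, Slc26a11, Myh6 and Car3, each at 1.00. Each of them had 0 counts in all F1 sperm libraries and fewer reads than Ly6d in KO-F2, for example 84 and 64 for Rgs14, a regulator of G protein signalling, and 53 and 41 for Myh6, a myosin heavy chain of the heart. Such a correlation is set by presence in 1 group of libraries, and 57 genes exceeded 0.99. Among the 29 other genes of the Ly6/uPAR family that were measured, the median did not share the pattern of Ly6d. Of the 16 that passed the filter between KO-F2 and Ctrl-F1 spermatozoa, 6 were higher in both KO-F2 libraries and 4 lower. Over all genes tested, 28.9% were higher in both and 19.2% lower. The family's median log2 fold change was 0.03 beside 0.07 over all genes tested. EdgeR called 0 of the 16, and 6 had an unadjusted p under 0.05, beside 1960 of 13149 genes. Beside 277 of 12963 genes (2.14%) over the whole table, DESeq2 called 3 of the family, of which 1 was higher. That gene was Plaur, the urokinase receptor, singled out after its values were seen, with 207 and 166 counts in KO-F2, none in Ctrl-F1, against 3 and 0 in KO-F1 (adjusted p = 0.149 by edgeR and 0.00115 by DESeq2). Ly6g5b, singled out in the same way, had 24 and 32 counts in KO-F2 and 0 in all 4 F1 sperm libraries. Ly6e, the most abundant of them, had 4803 and 4056 counts in KO-F2 and 7810 and 2238 in the shallower Ctrl-F1 libraries, a log2 fold change of -2.51 (SE 0.42, adjusted p = 0.149). Lypd4, a family member expressed in the male germ line, had 2337 and 1274 counts in KO-F2, 443 and 122 in Ctrl-F1, against 124 and 94 in KO-F1.

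The luminal keratins were the more abundant keratins of the sperm libraries. Krt8 and Krt18 form a filament pair, and Krt18 is known as the type I keratin that lies in the type II cluster, beside its partner. Krt8 lies at chr15:101996711-102004342 on the minus strand and Krt18 at chr15:102028216-102032026 on the plus strand (GRCm38), with 23873 bp and no protein-coding gene between them. Krt7 (chr15:101412403-101427806, plus strand) and Krt5 (chr15:101707069-101712905, minus strand) belong to the same type II cluster, and Ly6d (chr15:74762056-74763567, minus strand) is 26.6 Mb away on that chromosome. Krt15 (chr11:100131759-100135949), Krt19 (chr11:100140810-100145926) and Krt14 (chr11:100203162-100207510) lie on the minus strand of the type I cluster, and Trp63 (chr16:25683765-25892088) on the plus strand of chromosome 16. RefSeq's promoter table (GRCm38.p6) held 5 of the 9 genes, and the 250 bases before the start of Krt8 and Krt18 are shown because both neighbours were higher in KO-F1 in the comparisons that follow. Ly6d, Krt15, Krt19 and Trp63 were not in the table.
Krt8 promoter, chr15:102004343-102004592, minus strand: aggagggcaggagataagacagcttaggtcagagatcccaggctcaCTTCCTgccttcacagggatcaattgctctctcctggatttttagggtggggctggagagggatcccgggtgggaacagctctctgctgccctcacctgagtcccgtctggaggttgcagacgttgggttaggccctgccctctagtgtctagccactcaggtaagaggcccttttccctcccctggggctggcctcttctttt
Krt18 promoter, chr15:102027966-102028215, plus strand: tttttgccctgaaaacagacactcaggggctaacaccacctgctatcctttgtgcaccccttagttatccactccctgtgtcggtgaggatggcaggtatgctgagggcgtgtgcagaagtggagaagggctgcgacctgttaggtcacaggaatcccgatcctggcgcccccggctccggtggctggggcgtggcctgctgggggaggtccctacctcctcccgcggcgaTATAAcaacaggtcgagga
Capitals mark matches on either strand to the letters TATAA (the core of a TATA box), CCGCCC (a GC box) and AGGAAG (the core of an Ets site), which were chosen after the sequences were seen and do not overlap each other here. Krt18 held TATAA 19 bases before its start and Krt8 did not, and among 32851 promoter windows of this length 22.8% held it. Krt8 held AGGAAG on the opposite strand, 204 bases before its start, as did 29.5% of windows, and neither held CCGCCC, which was in 32.7%. Matches of such short letters describe the windows and say nothing of binding.

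KO-F1 was compared with Ctrl-F1 spermatozoa to ask whether a father's loss of Scml2 altered the RNA of his sons' spermatozoa. All 4 luminal keratins had a higher mean level in KO-F1, and for Krt8, Krt18 and Krt19 both KO-F1 libraries were above both Ctrl-F1 libraries. Krt8 was at 24.7 and 45.9 CPM in Ctrl-F1 and at 162.3 and 97.8 CPM in KO-F1. Krt18 was at 83.2 and 47.2 CPM in Ctrl-F1 and at 321.8 and 175.5 CPM in KO-F1. Krt19, a type I keratin without a tail domain, was at 59.3 and 41.2 CPM in Ctrl-F1 and at 273.9 and 142.4 CPM in KO-F1. In each of the 3 genes KO-F1 replicate 1 was the highest of all sperm libraries, and the groups did not overlap.

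After TMM normalization the log2 fold change was 1.40 (SE 0.52) for Krt8, 1.48 (SE 0.46) for Krt18 and 1.59 (SE 0.45) for Krt19. Each exceeded its error, with an unadjusted p of 0.0282, 0.0116 and 0.00782, but none passed adjustment over all genes (edgeR, adjusted p = 0.203, 0.155 and 0.144). By DESeq2 the adjusted p was 0.0799, 0.0172 and 0.0133, in a range over all alternatives of 0.0415 to 0.687 for Krt8, 0.0172 to 0.633 for Krt18 and 0.0133 to 0.623 for Krt19. No member was thus called by these fits at the study's threshold of 0.01. The study's own list of changed genes was not compared here. Over the whole table edgeR called 0 of 10785 genes (0%), with 2105 at an unadjusted p under 0.05, and DESeq2 called 390 of 5000 (7.8%). A position of both KO-F1 libraries above both controls was common, at 28.3% of the genes tested, beside 3 of the 4 luminal keratins. The ratio of mean CPM was larger than the TMM fold, 3.68 for Krt8, 3.81 for Krt18 and 4.14 for Krt19, because scaling to library totals raised the log2 fold change of a typical gene by 0.44.

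Krt7 did not follow. It was at 33.4 and 37.9 CPM in Ctrl-F1 and at 26.3 and 97.8 CPM in KO-F1, so that the KO-F1 libraries lay on either side of the controls (log2 fold change 0.39, SE 0.69, adjusted p = 0.816). Without KO-F1 replicate 2 its log2 fold change was -0.94. Krt5, Krt14 and Trp63 did not pass the filter. Krt14, at 0 in both Ctrl-F1 libraries, had a mean of 8.998 CPM in KO-F1, at least 5.57-fold higher, which rests on the 42 counts of replicate 1 as against 6 in replicate 2.

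**Figure D3:**
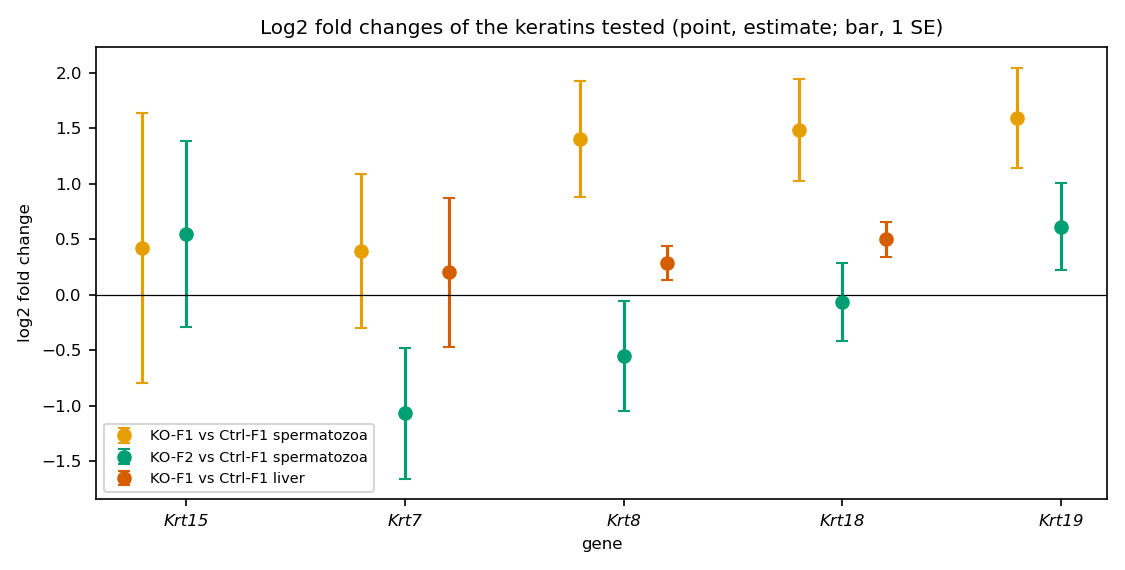
Log2 fold change (y axis, TMM-normalized, edgeR) of the 5 keratins that passed the filter (x axis) in 3 comparisons, with bars of 1 SE; genes without a point were not tested there. Krt8, Krt18 and Krt19 lie between 1.40 and 1.59 in KO-F1 against Ctrl-F1 spermatozoa, and between -0.55 and 0.61 in KO-F2.

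The other genes of simple epithelia did not rise as a group in KO-F1. Of 22 further luminal genes 19 passed the filter, and 6 were higher in both KO-F1 libraries, beside 28.3% of all genes tested. Another 3 were lower in both, a position whose share over all genes was not counted. The median log2 fold change of the 19 was 0.06 beside 0.02 over all genes tested. Cldn3, a tight junction claudin and the most abundant of them, had 4841 and 3853 counts in the Ctrl-F1 libraries, against 3776 and 3300 in KO-F1 (log2 fold change -1.08, SE 0.43, adjusted p = 0.223). Epcam, an adhesion molecule of epithelial cells, had a log2 fold change of -0.54 (SE 0.51, adjusted p = 0.611) and Spint2, a protease inhibitor, one of 0.06 (SE 0.40, adjusted p = 0.959). Elf3, an epithelial transcription factor singled out after its values were seen, had 49 and 28 counts in the Ctrl-F1 libraries, against 316 and 119 in KO-F1 (log2 fold change 1.67, SE 0.53, adjusted p = 0.160). Among 45 other keratins only 2 passed the filter. Krt32, a hair keratin and the most abundant of these, had 52 and 6 counts in the Ctrl-F1 libraries, against 400 and 136 in KO-F1 (log2 fold change 2.58, SE 0.74, adjusted p = 0.145 by edgeR and 0.00809 by DESeq2), and Krt23 had 16 and 13 counts in Ctrl-F1 and none in KO-F1.

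The rest of the library also differed between these groups. All 12 genes of spermatids and spermatozoa had a negative log2 fold change in KO-F1, with a median of -2.08 beside 0.02 over all genes tested. Their summed level was 58389 and 43153 CPM against 132544 and 117033 CPM in Ctrl-F1. EdgeR called 0 of them, and 12 had an unadjusted p under 0.05, beside 2105 of 10785 genes. DESeq2 called 12, beside 390 of 5000 genes (7.8%). Genes of principal cells, the secretory luminal cells of the epididymis, summed to 11181 and 14276 CPM in KO-F1, within the range of 21139 and 7126 CPM in Ctrl-F1. They were led by Crisp1, with 44302 and 8193 counts in the Ctrl-F1 libraries, against 25633 and 24072 in KO-F1. The ribosomal RNA gene Rn45s made up 20.6% and 28.7% of Ctrl-F1 and 15.7% and 28.6% of KO-F1 library totals. Their part in the keratin values was not tested.

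By likeness over the 6 sperm libraries, Krt8 was closest to Zdhhc3, Mrpl27, Fbxw2, Crls1 and Tuba1b (Pearson correlation 1.00, 1.00, 1.00, 1.00 and 0.99 of log2(CPM + 1), n = 6 libraries). These are genes of broad use, among them a palmitoyltransferase, a mitochondrial ribosomal protein and an alpha-tubulin. Zdhhc3 had 69 and 61 counts in the Ctrl-F1 libraries, 263 and 140 in KO-F1 and 301 and 257 in KO-F2, beside 60 and 69, 451 and 204, and 268 and 264 of Krt8. Krt5 was closest to Prc1 (0.99), a spindle protein, with 63 and 10, 19 and 13, and 110 and 56 counts in the same order, and relative to depth both genes were highest in Ctrl-F1 replicate 1. These values rank genes over libraries that share their depth and preparation, and carry no test.

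KO-F2 was compared with Ctrl-F1 to ask whether the changes of the sons were still present in the grandsons. The KO-F2 libraries held fewer CPM of Krt8 and Krt18 than those of KO-F1 and were near the controls. Krt8 was at 23.4 and 31.5 CPM and Krt18 at 64.2 and 73.8 CPM in KO-F2, within or overlapping the range of the 2 Ctrl-F1 libraries. The log2 fold change was -0.55 (SE 0.49, adjusted p = 0.682) for Krt8 and -0.07 (SE 0.35, adjusted p = 0.964) for Krt18, whose sign was positive in CPM, where the KO-F2 to Ctrl-F1 ratio was 1.06. Here scaling to library totals raised a typical log2 fold change by 0.15. Krt19 was at 62.6 and 109.0 CPM, above both Ctrl-F1 libraries, with a log2 fold change of 0.61 (SE 0.39, adjusted p = 0.539). Krt7 was at 10.0 and 28.4 CPM, below both Ctrl-F1 libraries, with a log2 fold change of -1.07 (SE 0.59, adjusted p = 0.466).

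Of the 5 keratins that passed the filter none was called in this comparison, in which edgeR called 0 of 13149 genes (0%), with 1960 at an unadjusted p under 0.05, and DESeq2 called 277 of 12963 (2.14%), none of them a keratin of the set or Trp63. Krt5, Krt14 and Trp63 did not pass the filter. Both KO-F2 libraries were above both controls in 28.9% of all genes tested and below both in 19.2%, beside 1 luminal keratin each. Of the 22 further luminal genes 21 passed the filter, and 14 were lower and 3 higher in both KO-F2 libraries, with a median log2 fold change of -1.10 beside 0.07 over all genes. Epcam had 474 and 179 counts in KO-F2 and 552 and 177 in the shallower Ctrl-F1 libraries (log2 fold change -2.59, SE 0.47, adjusted p = 0.149, and 3.64e-05 by DESeq2). The 4 luminal keratins had a median of -0.31. Principal cell genes summed to 3507 and 1772 CPM in KO-F2, below both Ctrl-F1 libraries, a sum led by Crisp1 (32737 and 10567 counts). The genes of this list were mixed. Of the 12 that passed the filter, 5 had a positive log2 fold change, and 5 were lower and 1 higher in both KO-F2 libraries.

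In the direct contrast of the generations, which the choice of genes used and which is given without a test, Krt8, Krt18 and Krt19 were lower in both KO-F2 than in both KO-F1 libraries, as were 28.7% of all genes. Over the whole table edgeR called 312 of 13517 genes (2.31%) in this contrast. The mean level in KO-F2 was 0.211 of that in KO-F1 for Krt8, 0.278 for Krt18 and 0.412 for Krt19, on a scale (library totals) that shifted a typical log2 fold change by -0.42 relative to TMM. For Krt7 it was 0.310, but the 28.4 CPM of KO-F2 replicate 2 overlapped the 26.3 CPM of KO-F1 replicate 1. All 3 comparisons of spermatozoa share groups, so their values are not independent.

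The balance of the luminal keratins differed among sperm libraries beyond counting error. Krt8 made up 22.9% of the Krt8 and Krt18 counts (95% Wilson interval 18.2% to 28.4%) in Ctrl-F1 replicate 1 and 49.3% (41.1% to 57.5%) in replicate 2. The Ctrl-F1 replicates thus spanned the values of the other 4 sperm libraries. KO-F1 was at 33.5% (31.1% to 36.1%) and 35.8% (32.0% to 39.8%) and KO-F2 at 26.7% (24.0% to 29.5%) and 29.9% (26.97% to 33.0%). The share of Krt19 among Krt8, Krt18 and Krt19 was 41.7% (39.4% to 44.0%) and 50.9% (48.6% to 53.2%) in KO-F2, and between 30.7% and 36.1% in the 4 F1 libraries. Reads of Krt8 can also fit the processed copy Krt8-ps, so its share is the less certain, and the amplified cDNA means that these intervals cover counting error only.

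**Figure D4:**
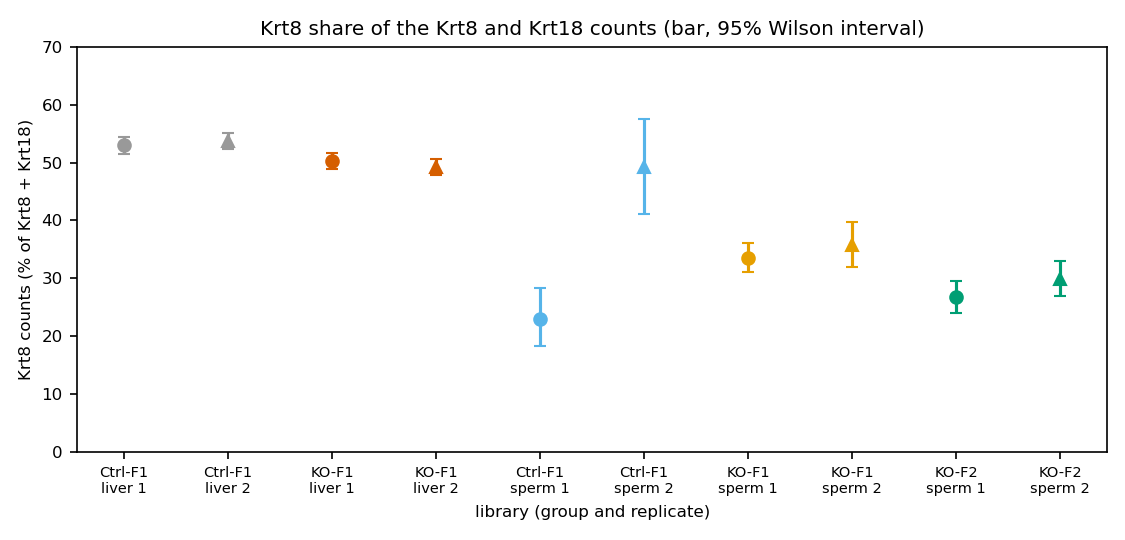
Share of Krt8 in the summed counts of Krt8 and Krt18 (y axis, percent) in each of the 10 libraries (x axis), with 95% Wilson intervals as bars. Liver libraries lie between 49.3% and 53.8%, and the 2 Ctrl-F1 sperm libraries stand apart from each other at 22.9% and 49.3%.

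Liver served as the somatic tissue of the same generation. The hepatocyte pair Krt8 and Krt18 was abundant and nearly balanced, whereas Krt7 and Krt19 were near the limit of detection. Krt8 was at 170.2 and 182.5 CPM in Ctrl-F1 and at 196.8 and 214.2 CPM in KO-F1, and Krt18 at 151.1 and 156.9 CPM in Ctrl-F1 and at 195.0 and 220.2 CPM in KO-F1. Both genes were higher in both KO-F1 livers, like 20.2% of the genes tested. The log2 fold change was 0.29 (SE 0.15, adjusted p = 0.582) for Krt8 and 0.50 (SE 0.16, unadjusted p = 0.0137, adjusted p = 0.485) for Krt18. Per kilobase of exon, Krt8 was at 0.873 and 0.903 of Krt18 in Ctrl-F1 and at 0.783 and 0.755 in KO-F1, and in spermatozoa at between 0.230 and 0.754.

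Krt7 had 9 and 18 counts in the Ctrl-F1 libraries, against 18 and 7 in KO-F1 livers, and overlapped (log2 fold change 0.20, SE 0.67, adjusted p = 0.949). Krt19, a marker of the bile duct in this organ, had 8 and 14 counts in the Ctrl-F1 libraries, against 5 and 8 in KO-F1 and did not pass the filter. No member was called in liver, where edgeR called 0 of 11505 genes (0%), with 1083 at an unadjusted p under 0.05, and DESeq2 called 20 of 7306 (0.274%), none of them a member. Among the 7 hepatocyte genes 3 were higher in both KO-F1 livers, beside 20.2% of all genes tested, and none lower. Their median log2 fold change was 0.45 beside -0.01 over all genes.

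The effect in spermatozoa was set against that in liver with an interaction term over the 8 F1 libraries, which was added after seeing the data. The fit treated the 8 libraries as independent, so any pairing of liver and spermatozoa by male was not modelled. The difference of the log2 fold changes, spermatozoa minus liver, was 1.88 (SE 0.71, unadjusted p = 0.0279, adjusted p = 0.297) for Krt19, 1.04 (SE 0.52, adjusted p = 0.401) for Krt8, 0.86 (SE 0.51, adjusted p = 0.493) for Krt18 and 0.08 (SE 1.08, adjusted p = 1.00) for Krt7. None passed edgeR's test, in which 0 of 14415 genes had an adjusted p under 0.05, so a difference between tissues was not established for any keratin. The tissues were prepared with different kits, and levels between them were not tested.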

How the data were processed

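The authors aligned single-end reads of 75 bases to GRCm38 with Hisat2 and counted uniquely aligned reads per gene with featureCounts; the annotation and strand setting are not given in the sources used here. The values deposited are raw counts per gene symbol, 1 table per library. The 23420 lines of each table hold 2 symbols more than once, which were left out (23416 genes kept). Both groups and replicate numbers were taken from the sample labels. CPM are counts scaled to the library total, and exon lengths and positions are those of RefSeq on GRCm38. Groups were compared 2 at a time with edgeR 4.0.16 in R 4.3.3 (TMM, filterByExpr defaults, quasi-likelihood test, Benjamini-Hochberg adjustment over all genes tested), and genes were called where the change was 2-fold or more with adjusted p below 0.01. DESeq2 1.42.0 was the main alternative. Other alternatives were DESeq2's size factors, no filter, an adjusted p under 0.05, the replicate number as a block, thinning to the smallest library, 1 model of all sperm groups and leaving out each replicate. Restriction to genes with 10 or more counts throughout, the crossed block and the tissue interaction were chosen after seeing the data. Members and gene lists were chosen with earlier results of these data known. The genes named are the 9 members, the 5 genes most correlated with Ly6d, Krt5 or Krt8 (mean of at least 10 counts), and up to 4 genes of each of 16 lists with the highest mean CPM in spermatozoa; other genes were named after their values were seen. Replicates are separate biological samples. Library totals are given with the results; intervals and limits cover counting error only, since amplified reads are not independent molecules. The 37 ChIP-seq and embryo samples were not analysed here. Some genes that the naming rule selects are not reported here.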

Additional observations from a re-analysis of the deposited data

How the results depend on the processing

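Over the alternatives to the fold changes of the keratins, 128 values kept direction and call and 10 changed sign, none of which had been called; in the comparisons with Ctrl-F1 no alternative made a keratin of the set or Trp63 a call, edgeR at an adjusted p under 0.05 included (0 in each). Ly6d in spermatozoa and the contrast of KO-F2 with KO-F1, which the choice of genes used, are left out of these counts. Krt8, Krt18 and Krt19 stayed higher in KO-F1 spermatozoa, at log2 fold changes of 0.93 to 2.06, 1.08 to 1.84 and 1.14 to 1.97 over all alternatives. All but 1 of the sign changes came with leaving out a library. With 1 library left out, KO-F1 against Ctrl-F1 spermatozoa, the log2 fold change ranged from -0.55 to 1.38 for Krt15 (-0.19 without Ctrl-F1 replicate 1, -0.55 without KO-F1 replicate 2) and from -0.94 (without KO-F1 replicate 2) to 1.07 for Krt7. In KO-F2 against Ctrl-F1 spermatozoa it ranged from -0.058 (without Ctrl-F1 replicate 1) to 1.52 for Krt15, from -0.995 to 0.14 (without Ctrl-F1 replicate 2) for Krt8 and from -0.28 to 0.30 for Krt18 (0.30 without Ctrl-F1 replicate 1, 0.064 without KO-F2 replicate 1). Krt18 was also at 0.035 with at least 10 counts in every library. In liver Krt7 ranged from -0.50 (without KO-F1 replicate 1) to 0.73, with -0.18 without Ctrl-F1 replicate 1. The cause was not tested.

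The 312 genes called between KO-F2 and KO-F1 spermatozoa became 2759 at an adjusted p under 0.05, 2058 with DESeq2, 2552 without a filter, 897 after thinning, 198 in 1 model of all sperm groups and 230 to 2898 with a replicate left out. The replicate block gave 819. Same-numbered libraries are from different animals, and the correlation of their deviations was -0.01 and 0.13 for KO-F1 and KO-F2 against Ctrl-F1 spermatozoa, 0.06 for KO-F2 against KO-F1 and -0.10 in liver. In each comparison with Ctrl-F1 the block left 0 members called, with Ly6d left out in spermatozoa. The crossed block in liver also left 0 called. The summed level of the 9 genes in Ctrl-F1 spermatozoa, 198.9 CPM, was 227.8 in TMM-normalized CPM and 263.6 without Rn45s. With 2 libraries per group and F1 sperm libraries of at most 2778171 counts, genes below 1.08 to 2.00 CPM could not be followed there.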
